A study of Mus musculus with 4 samples.

Results

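Collagens are the main structural proteins of the extracellular matrix, and lysyl oxidases are the secreted copper enzymes that oxidise lysines in collagen and elastin so that the chains become cross-linked. In the cochlea, collagens of types II, V, IX and XI build the tectorial membrane and the spiral limbus and ligament, type IV collagen networks lie in the basement membranes of epithelium, nerve and vessel, and type I collagen is the main protein of the surrounding bone. Cochlear RNA was screened for the 49 genes on the array whose name is that of a collagen chain (44 genes) or of *Lox* or *Loxl1* to *Loxl4* (5 genes), out of 30028 gene names in all. They are covered by 79 probes, and for each gene the brightest probe that the scanner software marked well above background on at least 1 array was taken. This gave 42 measured genes among 21942 measured names, and 40 of the 42 passed this mark on each of the 4 arrays.

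The 4 groups were wild-type mice (WT) and mice of the *Prestin*-*hDTR* line (hDTR here, OHC-TRECK in the labels), each either untreated (DT-) or given diphtheria toxin (DT+) at 50 µg/kg 7 days before dissection, at an age of 5 weeks. The strain of all groups is B6J in the labels, and the methods name C57BL/6J as the source of the eggs for the transgene. The line carries the human receptor of the toxin under the prestin promoter, which is active in outer hair cells (OHCs), and it was 1 line chosen among several founders. The series gives n = 8 per group, 4 females and 4 males, with male and female RNA pooled on 1 Agilent array, whereas the methods speak of 8 cochleae per mouse, so what the 8 counts was not settled. The comparisons therefore have no replicate check and no test. A difference is called at 2-fold or more, the 3 comparisons of hDTR DT+ share its array, and both comparisons among the controls share that of WT DT-. Where 4 values of a gene follow each other, they stand in the order WT DT-, WT DT+, hDTR DT- and hDTR DT+.

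Facts of the whole arrays bear on what follows. Between 62.27% and 70.64% of the probes were well above background, no spot was saturated, and the repeated spots of a probe had a median SD of 0.06 to 0.07 on the log2 scale. Cochlear markers were bright in all 4 groups, with *Coch* at 5.95 to 6.06 and *Otos* at 6.99 to 7.41, where each value is the log2 of the signal divided by the 75th percentile of its array. Of the 5 OHC markers, *Ocm*, *Strc*, *Chrna9* and *Chrna10* were at least 2-fold lower in hDTR DT+ than on each other array, and *Slc26a5* did not exceed the background mark there. Neutrophil genes differed strongly among the control arrays (*Mpo* 0.47, 1.02 and -1.66), and so did erythroid genes.

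Counted at 2-fold, *Loxl4* was the gene of the 42 that was higher in hDTR DT+ than on each of the other arrays, and no gene of the 42 was lower than on each of them. The share over all measured names was 1.07% higher and 0.255% lower. Against hDTR DT-, 1 of 42 genes was higher (*Loxl4*) and 0 were lower, where 2.71% and 1.42% of all names were. Against WT DT+, 1 of 40 genes was higher (*Loxl4*) and 2 were lower (*Col1a1* and *Col22a1*), beside 1.52% and 1.95% of all names. Against WT DT-, 1 of 41 genes was higher (*Loxl4*) and 0 were lower, beside 2.11% and 2.05% of all names. Among the control arrays, no collagen or lysyl oxidase gene was called: in hDTR DT- against WT DT- 1.03% of all names were higher and 2.42% lower, and in WT DT+ against WT DT- 1.55% were higher and 1.12% lower. The number of matrix genes called was thus near the background in each comparison.

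Below the 2-fold line, most of these genes lay slightly higher in hDTR DT+. The log2 ratio to the mean of the other arrays had a median of 0.14 over the 42 genes, with 27 above 0 and 15 below, while the median of all names was 0.01. Of the 40 genes measured on every array, hDTR DT+ had the highest of the 4 values for 23 (57.5%) and the lowest for 7 (17.5%), and over 18248 names these shares were 33.47% and 34.98%. For 13 genes (32.5%, beside 15.8% of all names) the value lay above the nearest control array by more than the control arrays differed among themselves, and for 1 gene, *Col25a1*, it lay below by as much (2.5%, beside 14.7%). The control arrays spanned a median of 0.20 on the log2 scale for these genes and 0.145 for all names. The plot of all 42 genes gives the 3 ratios of each.

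**Figure D1:**
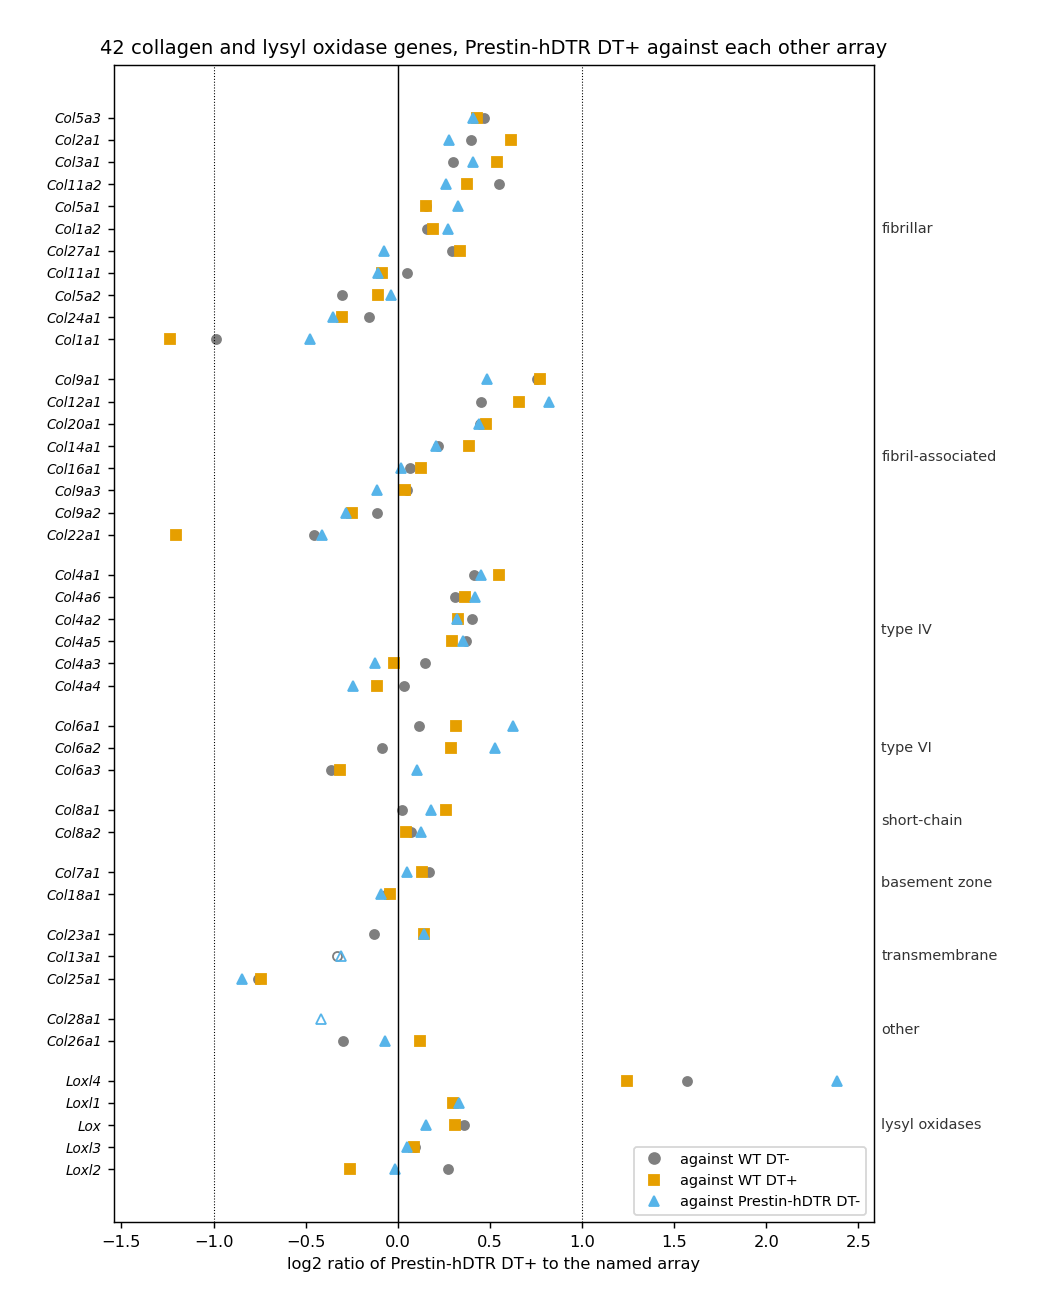
Each row is a gene, grouped by family, and each point its log2 ratio in hDTR DT+ to 1 of the 3 other arrays (circle WT DT-, square WT DT+, triangle hDTR DT-), with open points where 1 side was dim and dotted lines at 2-fold. *Loxl4* alone lies beyond the upper line against all 3 arrays, at 2.37-fold to 5.21-fold, while *Col1a1* and *Col22a1* cross the lower line against WT DT+ only.

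The readings of *Loxl4*, 1 of the 4 lysyl oxidase-like enzymes, and of *Col8a2*, which encodes a chain of the short-chain type VIII network collagen, both depend on which probe is read. Each gene has 2 probes of 60 bases, and the first 30 bases of each are printed as the array files list them (positions on mouse build mm9), because the probes of *Col8a2* gave different answers. The *Loxl4* probes lie at chr19:42667320-42667379 (brighter) and chr19:42668733-42668792 (dimmer) on the minus strand, with starts 1413 bases apart. Those of *Col8a2* lie at chr4:125991441-125991500 (brighter) and chr4:125989478-125989537 (dimmer) on the plus strand, with starts 1963 bases apart.
Loxl4 brighter probe: tcaaatgctgactttaaaaaactgttctcc
Loxl4 dimmer probe: acacacagatgatccttctaggtcttataa
Col8a2 brighter probe: acttaccacatatcacatatcaggttcagg
Col8a2 dimmer probe: atggtctctactccaccgagtacatccatt

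The brighter *Loxl4* probe read -3.81 in WT DT-, -3.49 in WT DT+, -4.62 in hDTR DT- and -2.24 in hDTR DT+ on the log2 normalized scale. hDTR DT+ had the highest value, and the control arrays were far apart among themselves, spanning 1.14 with the lowest value in hDTR DT-. The ratio was therefore 5.21-fold over hDTR DT-, 2.37-fold over WT DT+ and 2.96-fold over WT DT-. The 2.37-fold gap to the nearest control array was only a little wider than the 2.20-fold span of the controls. At the dimmer probe the values were -5.65, -6.28, -5.75 and -4.65 in the same order, and those of both WT arrays were dim, that is, not well above background. hDTR DT+ again had the highest value, at 2.15-fold over hDTR DT-, and at least 1.78-fold over WT DT+ and 1.99-fold over WT DT-, where the lowest signal well above background on the array sets the bound if it is higher than the reading. The log2 ratio of hDTR DT- to WT DT- was -0.81 at the brighter probe and -0.11 at the dimmer one.

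For *Col8a2* the probe chosen by brightness read 0.06, 0.09, 0.01 and 0.14. These 4 values lie within 1.09-fold, and hDTR DT+ had the highest of them. The dimmer probe, well above background on all arrays, read -3.24, -2.93, -3.26 and -4.42, and here hDTR DT+ had the lowest value, by -1.15, -1.49 and -1.18 on the log2 scale against hDTR DT-, WT DT+ and WT DT-. The dimmer probe by itself would be called 2-fold lower against each array, and the brighter probe would not be called in any comparison. *Col8a1*, the other chain of this collagen, read 0.17, -0.07, 0.01 and 0.19, so that hDTR DT+ and WT DT- had nearly the same signal. Why the probes of *Col8a2* differ was not tested.

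**Figure D2:**
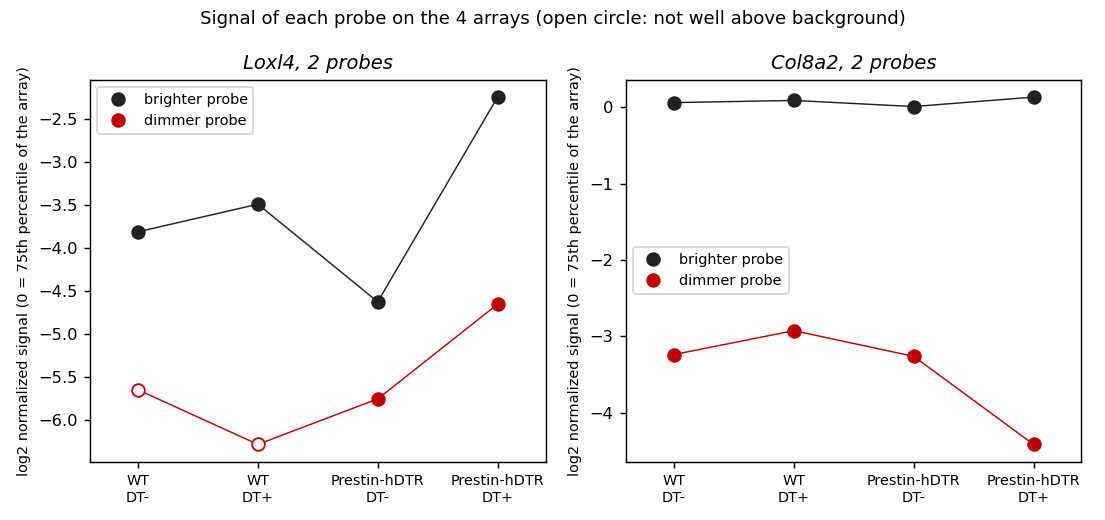
The y axis is the log2 normalized signal (0 is the 75th percentile of the array), the x axis the 4 arrays, and each line 1 probe, with open circles where the signal was not well above background. Both *Loxl4* probes are highest in hDTR DT+ (-2.24 and -4.65), whereas of *Col8a2* the brighter probe stays between 0.01 and 0.14 and the dimmer one is at -4.42.

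Probes of the other genes mostly moved alike. Of 15 genes with 2 or more measured probes, the ratios to the mean of the other arrays differed between probes by a median of 0.17 on the log2 scale, and by more than 1 in 2 genes, *Col8a2* (1.35) and *Col25a1* (1.47). *Col25a1* encodes a transmembrane collagen first known from neurons and from amyloid plaques. Its brightest probe read -3.18, -3.20, -3.10 and -3.94, lowest in the last by 0.74 or more, while the other 3 probes had log2 ratios of 0.36 to 0.69 in the opposite direction.

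The other lysyl oxidases moved little. *Lox*, the founding enzyme of the family, read -1.45, -1.40, -1.24 and -1.09. *Loxl1*, which acts on elastic fibres, read 0.15, 0.16, 0.13 and 0.46, and its second probe read -1.53, -1.47, -1.55 and -1.24. The control arrays lay within 0.03 of each other at the first *Loxl1* probe, and hDTR DT+ was higher by 0.30 to 0.33, so that this small difference was larger than the spread of the controls. *Loxl2* (-2.32, -1.79, -2.03 and -2.05) varied most between the WT arrays, and *Loxl3* (-1.63, -1.62, -1.58 and -1.53) stayed within 0.10. Only *Loxl4* of the 5 enzymes was called.

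Fibrillar collagens, the chains of the main matrix fibrils, were all measured on all 4 arrays, and 7 of 11 were above the mean of the other arrays, with a median log2 ratio of 0.21. The most separated member was *Col1a1*, which encodes the more abundant chain of type I collagen. It read 2.50, 2.75, 1.99 and 1.52, the lowest in the last. The difference was 2.36-fold to WT DT+, 1.98-fold to WT DT- and 1.39-fold to hDTR DT-, and the control arrays themselves spanned 1.69-fold. *Col1a2*, whose chain joins the product of *Col1a1* in the same trimer, went the other way and read 5.06, 5.03, 4.95 and 5.22. Each type I gene is measured by 1 probe here, so a second probe cannot be set against either.

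Among the fibrillar genes higher in hDTR DT+ than on every other array, *Col2a1*, the main collagen of cartilage and of the tectorial membrane, read 3.49, 3.27, 3.61 and 3.88. *Col3a1*, a collagen of soft connective tissue and vessel wall, was higher by 0.30 to 0.54 on the log2 scale, and *Col5a3*, a chain of the fibril-nucleating type V collagen, read -1.21, -1.17, -1.14 and -0.74. The log2 ratio of these 3 genes to the mean of the other arrays was 0.42 to 0.44, and for *Col3a1* and *Col5a3* the gap to the nearest control was wider than the span of the controls. *Col11a2* (1.58, 1.75, 1.87 and 2.13) was higher by 0.26 to 0.55 and *Col5a1* (-1.59, -1.59, -1.77 and -1.44) by 0.15 to 0.33. *Col11a1* and *Col27a1* lay between the control arrays. *Col5a2* was lowest in hDTR DT+ by 0.04 to 0.30, and *Col24a1* by 0.16 to 0.35.

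The fibril-associated collagens, which sit on the surface of fibrils, held the highest ratio after that of *Loxl4*. *Col9a1*, a chain of type IX collagen, read 0.62, 0.60, 0.88 and 1.37. The last value was the highest, 1.40-fold above hDTR DT- and 1.69-fold to 1.71-fold above the WT arrays, while those controls spanned 1.22-fold. *Col9a2* (2.88, 3.02, 3.05 and 2.77) was the lowest there and *Col9a3* (-1.65, -1.64, -1.49 and -1.60) lay between the controls, so that the 3 chains of 1 trimer had log2 ratios of 0.67, -0.22 and -0.01 to the mean of the other arrays. *Col12a1* (-2.51, -2.72, -2.88 and -2.06), found at the surface of type I fibrils, was highest by 1.37-fold to 1.77-fold, and *Col20a1* (-3.57, -3.60, -3.56 and -3.12) by 1.36-fold to 1.39-fold with controls within 0.04 of each other. At their brightest probes, *Col14a1* was higher by 0.21 to 0.39 and *Col16a1* by 0.02 to 0.13. Another probe of each was also well above background on all 4 arrays. It read -2.57, -2.80, -2.67 and -2.60 for *Col14a1* and -1.09, -1.38, -1.29 and -1.36 for *Col16a1*. At these probes hDTR DT+ lay between the controls, with log2 ratios of 0.08 and -0.11 to the mean of the other arrays.

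*Col22a1*, a collagen of tissue junctions such as those of tendon with muscle, was the second gene called lower against WT DT+. It read -1.49, -0.74, -1.53 and -1.94, so that WT DT+ had the highest value, 0.75 above WT DT- on the log2 scale, and the 2.31-fold difference to it was larger than the 1.33-fold and 1.37-fold differences to the untreated arrays. The highest reading of a skeletal muscle marker on any array was -4.29, for *Acta1*.

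In type IV collagen, the network of basement membranes, 4 of the 6 chains were highest in hDTR DT+. *Col4a1* and *Col4a2*, which form the network common to nearly all basement membranes, were higher in hDTR DT+ by 0.42 to 0.55 and by 0.32 to 0.40 on the log2 scale. *Col4a1* read -0.76, -0.89, -0.79 and -0.34 and *Col4a2* -0.90, -0.83, -0.82 and -0.50. *Col4a1* was spotted 10 times on each array, and these spots had SDs of 0.06 to 0.08, so its difference of 0.47 to the mean of the controls exceeded the spot error, which leaves out the variation between animals and pools. *Col4a5* (-0.78, -0.70, -0.76 and -0.41) and *Col4a6* (-2.42, -2.47, -2.53 and -2.11) were also highest there, with log2 ratios of 0.34 and 0.36. The second *Col4a6* probe, well above background on all arrays, had a lower ratio of 0.16, and 0.02 against hDTR DT-. *Col4a3* (-3.69, -3.52, -3.42 and -3.55) and *Col4a4* (-1.85, -1.70, -1.57 and -1.82), whose chains join that of *Col4a5* in another network, lay between the controls, so that the chains of that network had log2 ratios from -0.11 to 0.34.

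The genes *Col4a1* and *Col4a2* lie head to head, and the stretch between their annotated starts is shown because these neighbours had like ratios. In the RefSeq promoter table (GRCm38.p6) the start of *Col4a2* on the plus strand lies 21 bases before that of *Col4a1* on the minus strand, at chr8:11312805-11312826, so that the first bases of both transcripts overlap. No motif was searched in it.
Start of Col4a2 to start of Col4a1, plus strand: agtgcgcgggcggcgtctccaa
The starts of *Col4a5* and *Col4a6*, the pair with ratios of 0.34 and 0.36 (0.16 at the second *Col4a6* probe), lie 1343 bases apart in the same table.

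**Figure D3:**
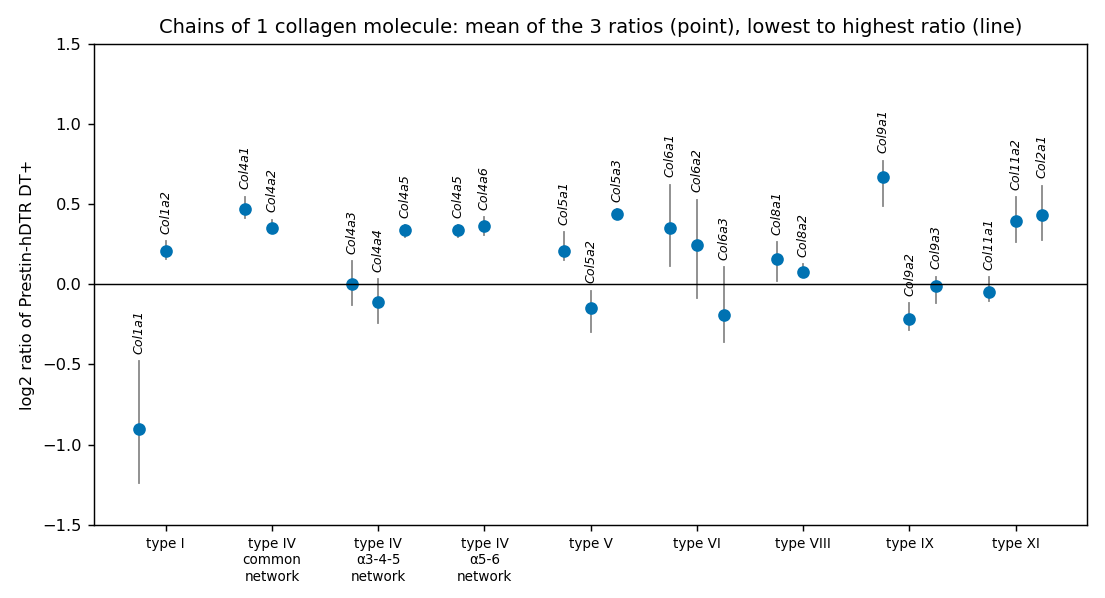
Points give the log2 ratio of each chain in hDTR DT+ to the mean of the other arrays, and lines run from the lowest to the highest of its 3 ratios, with the chains grouped by the collagen molecule they form. At the brightest probe of each gene, chains of the common type IV network differ by 0.12, those of its α5-6 network by 0.03, those of its α3-4-5 network by 0.45, those of type VIII by 0.08, those of types V, VI and XI by 0.58, 0.54 and 0.48, and those of types I and IX by 1.11 and 0.89. Second probes are not shown, among them those of *Col4a6* (0.16) and *Col8a2* (-1.27).

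In type VI collagen, the beaded filament of connective tissue, both WT arrays and hDTR DT+ lay above hDTR DT-. *Col6a1* read 0.44, 0.23, -0.07 and 0.55, *Col6a2* -2.18, -2.56, -2.80 and -2.27, and *Col6a3* -2.79, -2.84, -3.26 and -3.15. The log2 ratios of hDTR DT- to WT DT- were -0.51, -0.62 and -0.47, the lowest array for all 3 genes. All 5 measured fibroblast markers also lay below 0 in that comparison, with a median of -0.18 and the lowest at -1.05 (*Pi16*). So did all 5 endothelial (median -0.17), all 5 measured macrophage (-0.16) and all 7 neutrophil markers (-1.61). Other lists went the other way in the same comparison. All 6 tectorial membrane proteins (median 0.32) and all 6 measured cartilage collagens (0.165) were above 0. Of the 6 spiral ligament and limbus markers, 4 were above 0 and 2 below (0.15). The median of all names was -0.02. Of the 14 elastic fibre genes 11 were below 0 and 3 above (median -0.18), with *Mfap4* at -0.54 and *Mfap5* at -0.43, both of microfibrils. Of the 10 small leucine-rich proteoglycans 8 were below 0 and 2 above (median -0.06), with *Fmod*, for fibromodulin, at -0.45. The part of any of these in the type VI values was not tested. The log2 ratios of *Col6a1*, *Col6a2* and *Col6a3* in hDTR DT+ to WT DT- were 0.11, -0.09 and -0.36.

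The remaining collagens differed by less. *Col7a1*, of the anchoring fibrils, was higher by 0.05 to 0.17, and *Col18a1*, of basement membranes, was lower by 0.04 to 0.09. *Col23a1* and *Col26a1* lay between the control arrays. *Col13a1*, a transmembrane collagen, passed the background mark on both untreated arrays and *Col28a1* on that of hDTR DT- alone. Their ratios that involve a dim array are therefore bounds or rest on a dim reading. *Col10a1*, the collagen of hypertrophic cartilage, was dim on every array, and so were *Col6a4*, *Col6a5*, *Col6a6*, *Col15a1*, *Col17a1* and *Col19a1*. Of the 10 collagen genes known for inherited hearing loss (*Col2a1*, *Col4a3* to *Col4a6*, *Col9a1* to *Col9a3*, *Col11a1* and *Col11a2*), 5 were above the mean of the other arrays and 5 below, with a median log2 ratio of 0.17 and none called.

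The cochlea sits in bone, part of which can be taken along at dissection, and bone genes give a gauge of it. In bulk RNA, fewer bone cells and less RNA per cell cannot be told apart. The 4 bone collagens (*Col1a1*, *Col1a2*, *Col5a2* and *Col24a1*) had a median log2 ratio of -0.20 for hDTR DT+ against hDTR DT-, with 3 below 0, beside -0.20 against WT DT+ and -0.23 against WT DT-. The medians over all names were 0.01, 0.01 and -0.03. Of the 10 osteoblast and osteocyte markers, all were lower than the mean of the other arrays, with a median of -0.41. *Sp7*, at -0.01, was so by less than the spot error of 0.07, and *Runx2* was dim on both DT+ arrays. The median was -0.18 against hDTR DT- (8 of 10 below 0), -0.69 against WT DT+ (8 of 9 compared) and -0.30 against WT DT-. Among the controls, WT DT+ was above WT DT- for 9 of the 10 (median 0.21). *Bglap*, which encodes osteocalcin, read 2.54, 2.92, 2.28 and 1.45, and *Bglap2* read 4.96, 5.19, 4.77 and 4.09. *Ibsp*, for bone sialoprotein, read 1.32, 1.95, 0.98 and 0.96. The order of arrays at *Col1a1* was WT DT+, WT DT-, hDTR DT- and hDTR DT+ from high to low. It was then looked for in other genes. Of the 40 collagen and lysyl oxidase genes measured on all arrays, *Col22a1* alone shared it. So did 7 of the 9 osteoblast and osteocyte markers measured on all arrays (*Bglap*, *Bglap2*, *Ibsp*, *Dmp1*, *Mepe*, *Sost* and *Alpl*). Genes of other lists had it too: *Otos*, *Fap*, *Comp*, *Ocstamp*, *Omd*, *Bmp1* and *Serpinh1*. The share of all names with this order was not counted.

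The other bone markers varied in size. *Sp7*, the transcription factor of osteoblasts, read -3.66, -3.85, -3.79 and -3.78, and *Dmp1*, of osteocytes, read 0.72, 0.84, 0.67 and 0.48. *Mepe* and *Sost*, of osteocytes, and *Alpl* were lowest in hDTR DT+, by 0.23, 0.18 and 0.12 against hDTR DT- and by 0.52, 0.73 and 0.69 against WT DT+, *Phex* lay between the controls, and *Runx2* was dim there. Of the 6 osteoclast markers, 5 were below the mean of the other arrays and 1 above, with a median log2 ratio of -0.16. *Acp5* read 1.82, 1.41, 0.30 and 0.06, lower on both hDTR arrays, whereas *Ctsk* read 1.71, 1.59, 1.58 and 1.39. *Ocstamp* and *Oscar* had ratios of -0.09 and -0.08. *Dcstamp* and *Calcr* passed the background mark on only 2 arrays and 1 array. The part of the bone in the low *Col1a1* value was not tested.

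**Figure D4:**
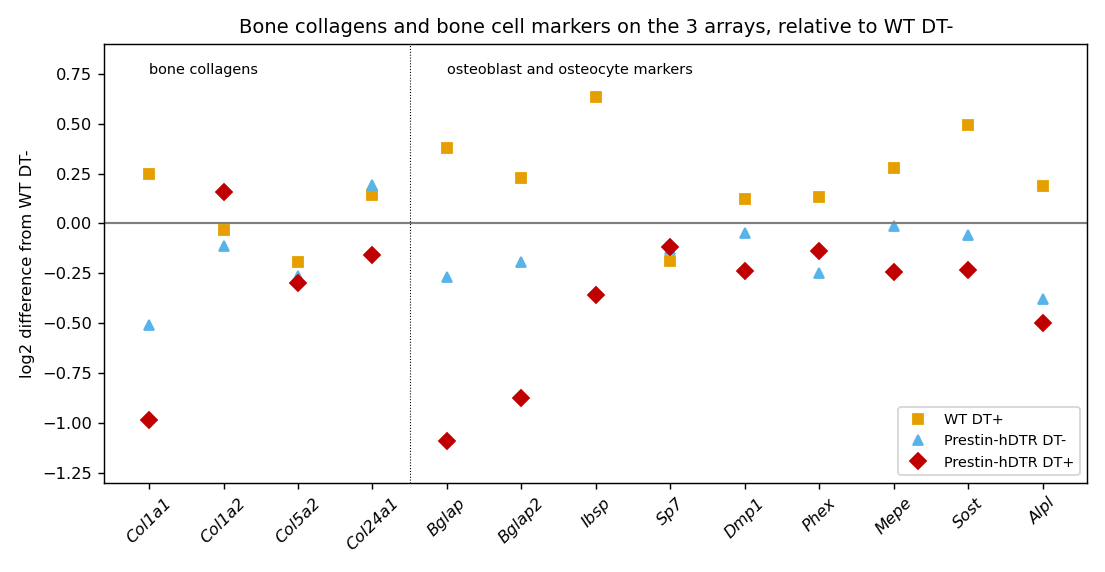
The y axis is the log2 difference from WT DT- (line at 0) for the 4 bone collagens and the 9 osteoblast and osteocyte markers measured on all arrays, with a square for WT DT+, a triangle for hDTR DT- and a diamond for hDTR DT+. The diamonds of *Col1a1* (-0.99), *Bglap* (-1.09) and *Bglap2* (-0.87) lie lowest, and that of *Col1a2* (0.16) lies above 0.

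Cartilage genes went in both directions. Of the 7 cartilage collagens 6 were measured, 3 above and 3 below the mean of the other arrays, with a median of 0.19. *Matn1*, which encodes a cartilage matrix protein, read -4.21, -4.03, -4.14 and -2.81 and was called higher against each array. *Acan*, for aggrecan, read -0.22, -0.22, 0.23 and 0.05 and *Sox9*, the transcription factor of chondrocytes, 1.22, 1.45, 1.49 and 1.87, *Cnmd* was higher by 0.46 to 0.50, *Chad* by 0.11 to 0.20, and *Comp* and *Hapln1* were lower than the controls by 0.09 or more and 0.34 or more. *Matn3* was not measured.

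Genes that make, organise or cut collagen place *Loxl4* among the matrix. Of 26 genes for collagen modification and secretion 25 were measured and none was called against each array, with a median log2 ratio of 0.05 to the mean of the other arrays. The highest was *Adamts2*, the procollagen N-proteinase, with a ratio of 0.58, and the lowest *Tll1*, a procollagen C-proteinase, with -0.84. The 10 small leucine-rich proteoglycans, which bind collagen fibrils, had a median of 0.24, and 2 of them were called higher. *Prelp* read -4.72, -4.82, -5.06 and -3.22 and *Kera*, for keratocan, read -2.72, -2.66, -2.72 and -1.59. *Lum*, for lumican, stayed just under the line, at 3.79, 3.80, 3.83 and 4.75. In all 3 genes the control arrays lay within 0.34 of each other, below hDTR DT+.

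Of the 10 measured collagen-cleaving proteases and inhibitors, *Timp1*, an inhibitor of these proteases, read -0.65, -0.82, -0.89 and 1.21 and was called higher against each array, by 3.64-fold to 4.30-fold. *Mmp13*, a collagenase of bone and cartilage, read -2.42, -3.89, -4.50 and -6.15, dim in hDTR DT+, and the control arrays also lay far apart. No gene of the 14 laminins and basement membrane genes (median 0.18), the 14 elastic fibre genes (median -0.01) or the 9 measured collagen receptors (median 0.24) was called against each array. *Nid2*, a nidogen of basement membranes, was the highest of the first list, at 0.44, and *Fbn2*, for fibrillin, of the second, at 0.58.

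Macrophage markers, like *Loxl4*, *Timp1* and those proteoglycans, were higher in hDTR DT+. *Cd68* was 2.76-fold above hDTR DT-, 2.32-fold above WT DT+ and 2.39-fold above WT DT-. *Adgre1* read -1.19, -1.17, -1.32 and -0.13, and both genes were called higher against each array. All 5 measured macrophage markers of 6 listed were above the mean of the other arrays, by 0.44 to 1.31. Of the 5 measured fibroblast markers 3 were above and 2 below (median 0.02), and of the 5 endothelial markers 3 were above and 2 below (median 0.04). The part of macrophages, fibroblasts or vessels in the values of the collagen and lysyl oxidase genes was not tested.

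**Figure D5:**
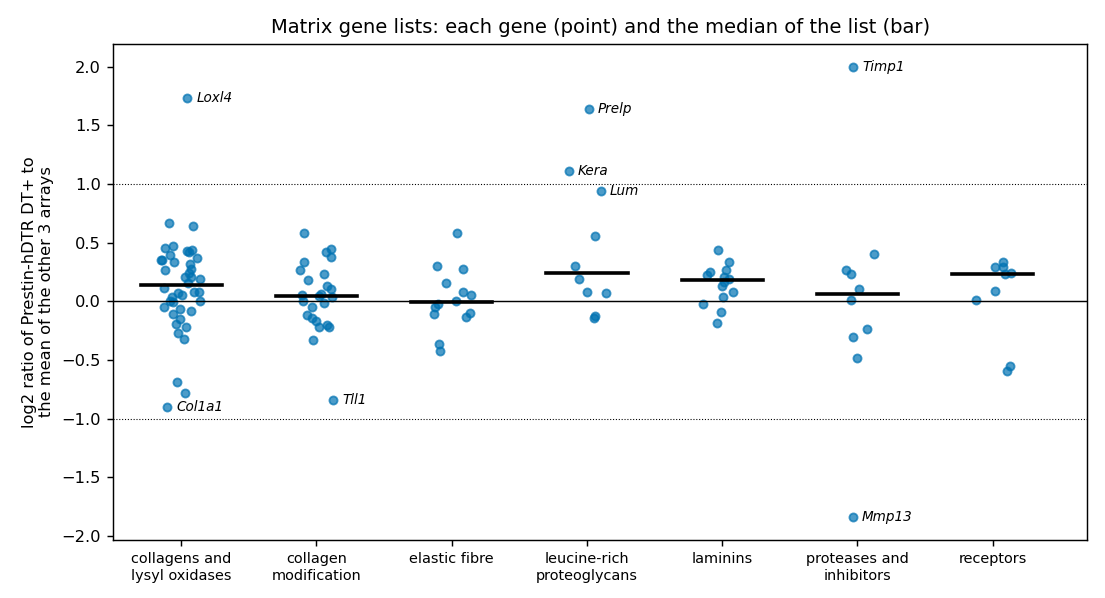
Each point is a gene and each bar the median of its list, on a y axis of the log2 ratio in hDTR DT+ to the mean of the other arrays, with dotted lines at 2-fold. *Loxl4* (1.73) stands near *Prelp* (1.64), with *Timp1* above both, while the medians of the 7 lists lie between -0.01 and 0.24.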

How the data were processed

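One Agilent 1-colour (Cy3) array was hybridised per group, all on 1 slide. The authors deposited the scanner output, whose processed intensity is linear, background-subtracted and detrended within the array by Feature Extraction 11.5.1.1 (per the file headers). A deposited series table holds a signal that is this intensity divided by 1 constant per array (medians 0.0865, 0.0853, 0.0828 and 0.085 in the order of the report), and served as an alternative only.

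Control spots and outlier spots were left out (72 probes lost on an array, no collagen or lysyl oxidase among them). Spots of a probe were averaged, divided by the 75th percentile of the array's probes and put on the log2 scale. The percentile shift is that of the study's methods, and the later baseline transformation to the median of the samples, which cancels in ratios between arrays, was left out. A probe counted as well above background when over 0.5 of its spots did. A ratio needed this on at least 1 of its arrays, and a dim side was raised to the lowest signal well above background on its array. One probe per gene name was used throughout. The genes, the 30 lists with 212 genes and the rule for named genes (every member, and of the other lists those called against each array, the largest rises and falls, and bone, cartilage and OHC markers) were chosen with earlier results of these data known. Of the listed names, 203 matched by symbol and 8 by RefSeq accession. *Coch*, *Otos*, *Mpo*, the osteoclast and macrophage genes named, and the genes of other lists named for their order of arrays were chosen after their values were seen. *Mfap4*, *Fmod* and *Lum* also stand outside the rule for named genes. Alternatives changed the floor, filter, background correction, scaling, source, probe and threshold. The steps were tested on simulated data. Python 3.11.15, pandas 2.3.3, R 4.3.3 and limma 3.58.1 were used. With 1 array a group, the number of arrays limits the precision.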

Additional observations from a re-analysis of the deposited data

Results flagged for a closer look

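In 25 of 41 genes the log2 ratio of DT+ to DT- had opposite signs in the genotypes. In 2 of these it was at least 0.32 in size in both, a difference that was not tested. These shares were not counted over all names, so neither count can be set against a background. *Col22a1* changed by -0.41 on the log2 scale in hDTR and by 0.75 in WT, a difference of -1.16. *Col6a2* changed by 0.53 in hDTR and by -0.37 in WT, a difference of 0.90. Each value rests on 4 arrays, 1 per group.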

How the results depend on the processing

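*Loxl4* was called higher against each array, and was the single such gene, under each of 9 other settings. Its smallest ratio was 2.37-fold, and its log2 became 1.03 with normexp background correction and 0.83, under the 2-fold line, at its dimmer probe, an alternative chosen after seeing the data. The ratio of *Col8a2* nearest to 0 was 0.04, and it was -0.52 as the mean of both probes and -1.15 at the dimmer probe. At a 1.5-fold threshold 1 gene, *Col25a1*, was lower than on each array, in place of 0. The median ratio of the genes, 0.14, was 0.21 with no filter on detection, where dim genes enter. The median of the bone collagens stayed between -0.20 and -0.17. Of the single ratios to the mean of the other arrays, 7 of 42 moved by more than the spot error of 0.07 with normexp. With the mean of all probes 10 of 42 did. A reversal was looked for only in ratios of 2-fold or more, that is in *Loxl4* alone, which did not reverse. The sign was kept in 37 of 42 genes with the mean of all probes. It was kept in 39 with normexp, with scaling to the median and with the deposited table.

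With normexp, fewer names of all were called at 2-fold: 317 higher and 131 lower (in place of 581 and 304) against hDTR DT-, 282 and 202 (297 and 380) against WT DT+, 200 and 192 (434 and 421) against WT DT-, and among the controls 70 and 205 (222 and 524) and 143 and 189 (318 and 230). No paired analysis was possible because each group has 1 array and the result comes from no test. Ratios that involve a dim array are bounds, or rest on a dim reading where that is above the floor. This holds for *Col13a1*, *Col28a1*, the second *Loxl4* probe and 1 probe each of *Col23a1* and *Col25a1*.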
